A study of Mus musculus with 8 samples.

Results

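Collagen chains are the gene products that assemble, in threes, into the collagens of the extracellular matrix, and each chain carries its class in its number. The chains described here were chosen as the non-control probes whose gene name on the array is Col, a collagen number, a and a chain number. The array held 91 such probes for 44 genes, out of 24884 named genes. By collagen number they fell into 11 fibrillar genes, 8 basement membrane genes, 6 type 6 genes and 19 others. A probe was tested where at least 4 of the 8 arrays showed it well above background, which 55 probes and 34 genes did: 10 fibrillar, 6 basement membrane, 3 type 6 and 15 others.

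RNA came from the tibialis anterior, a fast-twitch muscle of the lower leg, of male C57BL/6J mice aged 14 weeks, in 8 samples. The control group had 4 samples, and the other group had 4 from mice given Porphyromonas gingivalis, an oral bacterium of periodontal disease, by mouth for 6 weeks from 8 weeks of age. The bacteria were suspended in 100 µL of saline and given through a feeding needle, and all mice ate High-fat diet 32. The dose of bacteria and what the controls were given are not stated in the sources used here, and no group on a normal diet was analysed here. Each sample gave 1 array, the labels do not state that each is a separate mouse, and the question of the comparison was whether oral P. gingivalis was accompanied by different gene expression in the muscle.

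Each collagen chain contains stretches in which glycine recurs at a fixed spacing of 3 residues, as the only residue small enough for the inside of the triple helix. Fibrillar collagens, led by types 1 and 3 in muscle, form the load-bearing fibres of the endomysium, perimysium and tendon. Type 4 collagen forms the network of the basement membrane around each muscle fibre and capillary, types 15 and 18 sit at its outer face, and type 6 forms beaded filaments that join the basement membrane to the fibres. In skeletal muscle most fibrillar and type 6 chains are made by interstitial fibroblasts rather than by the muscle fibres.

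The glycine repeat can be read in some of the probes, which shows what kind of sequence the array measured. Of the 91 probes, each 60 bases long, 4 lay wholly in a reading frame without stop codons in which a glycine codon stood at every step of 3 codons. These are printed 5′ to 3′ as in the deposited files, with the glycine codons in capitals. Their mm9 positions are chr4:47283786-47283845 for Col15a1, chr9:20590066-20590795 for Col5a3, chr17:34189287-34189453 for Col11a2 and chr1:92689602-92690594 for Col6a3, and for the last 3 the span given was longer than the probe.
Col15a1: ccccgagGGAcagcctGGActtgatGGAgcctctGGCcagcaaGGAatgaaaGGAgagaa
Col5a3: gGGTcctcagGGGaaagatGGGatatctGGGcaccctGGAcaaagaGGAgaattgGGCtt
Col11a2: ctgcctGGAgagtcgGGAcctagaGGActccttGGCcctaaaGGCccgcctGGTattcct
Col6a3: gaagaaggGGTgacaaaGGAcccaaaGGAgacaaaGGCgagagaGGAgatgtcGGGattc
Signals are given as log2 of the processed signal relative to the 75th percentile of the same array, so that 0 is the level of the 75th percentile spot and a difference of 1 is a doubling. On this scale the repeat probe of Col15a1 differed between the groups, P. gingivalis less control, by -0.72 ± 0.20 (SE) and that of Col5a3 by -0.73 ± 0.39. Those of Col11a2 and Col6a3 differed by -0.21 ± 0.27 and 0.14 ± 0.21 (SE). The Col15a1 and Col5a3 repeat probes were well above background on 4 and 3 control arrays but on 1 P. gingivalis array each. Their P. gingivalis values are therefore near the limit of detection. The Col15a1 probe was the only tested probe of its gene. The brightest probes of Col5a3, Col11a2 and Col6a3 gave 0.04, 0.09 and 0.59, so the repeat probe gave a lower difference than the brightest probe in all 3 genes with both.

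The 5′ flanks of chains that the results turn on are shown for Col1a2 and Col3a1, from RefSeq on GRCm38.p6, as the 250 bases before the annotated start (chr6:4505368-4505617 and chr1:45311288-45311537, both plus strand). Short motifs searched on both strands are in capitals: the CCAAT box (CCAAT), the TATA box (TATAAA), the GC box (GGGCGG) and the SMAD element (CAGACA), of which none overlapped another in these windows.
Col1a2: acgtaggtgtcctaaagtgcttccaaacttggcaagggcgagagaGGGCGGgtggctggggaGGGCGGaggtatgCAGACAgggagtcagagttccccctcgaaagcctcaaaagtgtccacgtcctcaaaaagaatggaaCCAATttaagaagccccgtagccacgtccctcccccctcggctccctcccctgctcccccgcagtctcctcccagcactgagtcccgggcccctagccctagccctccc
Col3a1: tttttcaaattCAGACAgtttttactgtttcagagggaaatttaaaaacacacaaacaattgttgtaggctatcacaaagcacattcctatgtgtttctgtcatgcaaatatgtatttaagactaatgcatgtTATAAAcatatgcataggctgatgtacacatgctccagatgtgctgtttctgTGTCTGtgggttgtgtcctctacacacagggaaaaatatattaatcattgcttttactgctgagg
The Col1a2 window held GC boxes 205 and 188 bases before the start, a SMAD element at 175 and a CCAAT box at 109. The Col3a1 window held SMAD elements at 239 and 65 bases before the start and a TATA box at 117. A window was found for 35 of the 44 genes (38 windows), and none was found for Col1a1. The GC box was in 22 of these 38 windows and in 32.7% of all 32851 mouse windows, the CCAAT box in 13 and 33.8%, the SMAD element in 9 and 17.1%, and the TATA box in 5 and 12.4%. Among the classes, the SMAD element was in 3 of 8 fibrillar, 1 of 8 basement membrane, 0 of 7 type 6 and 5 of 15 other windows. A match is a run of letters and no evidence of binding.

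The arrays were alike in quality, with 56.3 to 59.3% of spots well above background and no saturated spot, while the 75th percentile of the processed signal was 275 to 306 in the control arrays and 238 to 255 in the P. gingivalis arrays. All 8 arrays lay on 1 slide, the controls in its row 1 and the P. gingivalis arrays in its row 2, so the effects of row and treatment cannot be told apart. The muscle fibre markers Acta1, Ckm, Myh4, Myh1, Mylpf, Tnnt3, Tnni2 and Atp2a1 were all well enough above background to be tested. The columns of the authors' deposited value table, set against the arrays, went against their labels: each column matched 1 array clearly, with a correlation of probe deviations of 0.833 to 0.880 where no second array exceeded 0.0784. The matched array had the column's own name for 2 of 8 columns and the column's own group for 4. The groups below are those of the array files. The arrays with the same group in both sources were controls 1 and 2 and P. gingivalis 3 and 4, and results are also given for these and for the groups of the value table.

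No collagen chain passed the test for a difference between the groups. The log2 signals were tested with limma, and p-values were adjusted by Benjamini-Hochberg across the 31649 tested probes, with a threshold of 0.05. Past it were 0 of the 55 collagen probes and 0 of all tested probes (0% of the probes), and the adjusted p of the 34 genes, each represented by its brightest probe, ran from 0.329 to 0.993. At an unadjusted p under 0.05, 19 of the 55 collagen probes passed, beside 3544 (11.2%) of all tested probes. Of these 19, 1 Col15a1 probe and 1 Col16a1 probe passed the filter through the group where they were brighter. Of the 34 genes, 12 passed at that level with higher signal in the P. gingivalis arrays, beside 4.86% of all 16034 tested genes, and 1 with lower signal, beside 5.83%. The lower gene was Col15a1, for which the control arrays alone were enough to pass the filter. Signal was higher in the P. gingivalis arrays for 25 of the 34 genes, beside 45.7% of all tested genes, and the median difference was 0.20, beside -0.01 over all tested genes. In 6 genes, Col1a1, Col1a2, Col3a1, Col5a2, Col6a1 and Col8a2, all 4 P. gingivalis arrays lay above all 4 control arrays, as did 3.24% of all tested genes. No collagen gene had all P. gingivalis arrays below all controls, beside 3.83% of tested genes, and groups kept apart in either direction made up 7.07% of tested genes. The count of 12 became 1 with the groups of the value table, 7 on the 4 arrays that both sources label alike (2 per group) and 20 after the normexp background correction. Over all 31649 tested probes the number at an unadjusted p under 0.05 went from 3544 to 1224, 2886 and 9094 under the same 3 settings. In whole muscle, more collagen-making cells and more RNA per cell cannot be told apart.

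**Figure D1:**
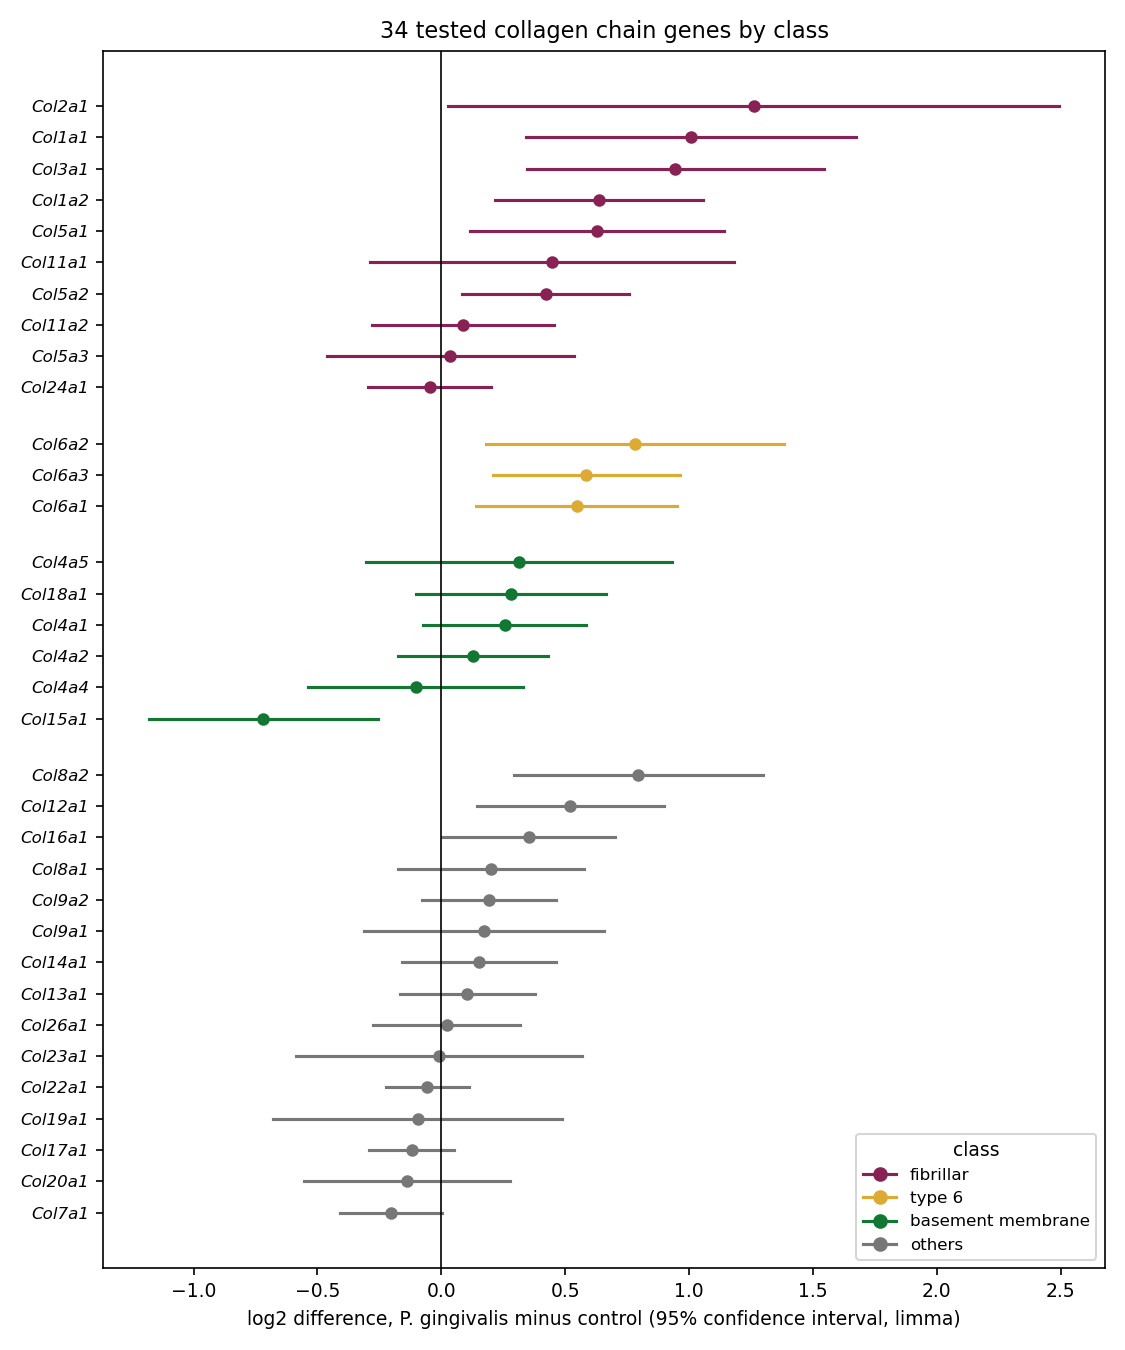
Difference in log2 signal, P. gingivalis less control (horizontal axis), for the 34 tested collagen genes ordered by class, with the 95% confidence interval of each gene's limma fit (4 arrays per group, not adjusted for the number of genes). The fibrillar and type 6 genes reach from -0.05 to 1.26 and from 0.55 to 0.78, while the basement membrane genes lie from -0.72 to 0.31 and most of the others near 0.

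Among fibrillar chains, 9 of the 10 tested genes had higher signal in the P. gingivalis arrays, beside 45.7% of all tested genes, with a median difference of 0.54. Beside 4.86% of all tested genes, 6 of the 10 were higher at an unadjusted p under 0.05. These were Col1a1, Col1a2 and Col3a1 of the load-bearing fibres, Col5a1 and Col5a2 of the type 5 collagen that starts and limits fibril growth, and Col2a1. The median was 0.02 with the groups of the value table, 0.53 on the arrays labelled alike and 0.33 after normexp.

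Col1a1 encodes the main chain of type 1 collagen, and its brightest probe lies at chr11:94813075-94813134. Its log2 signal in control arrays 1 to 4 was 2.94, 2.10, 3.36 and 3.03, and in P. gingivalis arrays 1 to 4 it was 4.12, 4.31, 3.56 and 3.48. The groups did not overlap, but the highest control and the lowest P. gingivalis array were separated by much less than the spread within either group. The difference was 1.01 ± 0.29 (SE, n = 4 and 4), a 2.01-fold higher signal with a 95% interval of 1.27 to 3.19, and limma's adjusted p was 0.336. All 3 tested Col1a1 probes were higher, by 1.01, 1.09 and 1.32. The difference was -0.01 with the groups of the value table, 0.997 on the 4 arrays labelled alike and 0.76 without control 2, the array with the lowest signal.

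Col1a2, the partner chain in the type 1 trimer (chr6:4490619-4490678), had control values of 4.66, 4.24, 4.97 and 4.74 and P. gingivalis values of 5.55, 5.51, 5.12 and 4.98. The order of the arrays was close to that of Col1a1, again with no overlap and with P. gingivalis 1 and 2 highest. The difference was 0.64 ± 0.18 (SE, n = 4 and 4; 1.55-fold; limma adjusted p 0.334), and the 3 tested probes gave 0.64, 0.49 and 0.21. It was -0.04 under the value table's grouping.

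Col3a1 encodes the single chain of type 3 collagen, the fine reticular fibre of the endomysium (chr1:45405589-45405648). Control arrays gave 3.37, 2.50, 3.80 and 3.46, and P. gingivalis arrays gave 4.48, 4.35, 3.93 and 4.16. Control 3 and P. gingivalis 3 were neighbours without overlapping. The difference was 0.94 ± 0.26 (SE, n = 4 and 4; 1.92-fold, 95% interval 1.27 to 2.92; limma adjusted p 0.329), with 0.66 and 0.11 for the other tested probes. It was 0.17 with the groups of the value table, 1.11 on the arrays labelled alike and 0.68 without control 2.

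The type 5 chains, which co-assemble with type 1 and set fibril diameter, did not all do the same. Col5a1 gave 1.05, 0.44, 1.31 and 1.25 in control arrays and 1.98, 1.72, 1.21 and 1.65 in P. gingivalis arrays, a difference of 0.63 ± 0.22 (SE; limma adjusted p 0.389). Its groups overlapped through P. gingivalis 3, and the difference was 0.06 under the value table's grouping. Col5a2 gave -2.80, -3.24, -2.59 and -2.73 against -2.24, -2.31, -2.58 and -2.54, a difference of 0.42 ± 0.15 (SE; limma adjusted p 0.384). Its groups touched at control 3 and P. gingivalis 3, and its dimmer probe, well above background on 2 P. gingivalis arrays, gave -0.40. The difference of the brighter probe was 0.27 after normexp and 0.04 under the value table's grouping. Col5a3, whose chain joins the others in some tissues, gave 1.24, 0.71, 1.61 and 1.37 against 1.69, 1.34, 1.03 and 1.003, a difference of 0.04 ± 0.22 (SE; limma adjusted p 0.965). The 95% interval of its fold, 0.725 to 1.45, spans changes in either direction, and its difference turned sign without control 2 (-0.14) and without P. gingivalis 1 (-0.11).

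The remaining fibrillar chains are known mainly from cartilage and bone and were dim in muscle. Col2a1, the chain of cartilage fibrils, gave -3.95, -6.51, -4.59 and -4.81 in control arrays and -2.87, -3.64, -4.38 and -3.93 in P. gingivalis arrays. Its difference was 1.26 ± 0.54 (SE; limma adjusted p 0.442), with overlapping groups and with control 2 not well above background. It was 0.75 without control 2, 0.39 after normexp and -0.18 under the value table's grouping. Col11a1, which seeds cartilage fibrils, gave -3.18, -4.23, -3.34 and -3.89 against -3.15, -2.46, -3.81 and -3.43, a difference of 0.45 ± 0.32 (SE) that was 0.20 without P. gingivalis 2, 0.26 without control 2, 0.28 after normexp, 0.08 on the arrays labelled alike and -0.37 under the value table's grouping. Single arrays thus moved it by over 1.5 times. Col11a2 gave -3.75, -4.50, -3.98 and -3.94 against -3.74, -4.07, -3.91 and -4.09, a difference of 0.09 that ran from -0.06 without control 2 to 0.19 without control 1. Col24a1 differed by -0.05, and Col27a1 was not well above background on any array. Of the cartilage and bone markers Acan, Sox9, Matn1, Matn3, Cnmd, Ibsp, Bglap and Sp7, 5 of 8 were well above background on no array, namely Acan, Matn1, Matn3, Cnmd and Ibsp. Sox9 and Sp7 were well above background on all 4 arrays of each group, and Bglap on 2 of each. Sox9 differed by -0.20, Sp7 by -0.04 and Bglap by 0.28.

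**Figure D2:**
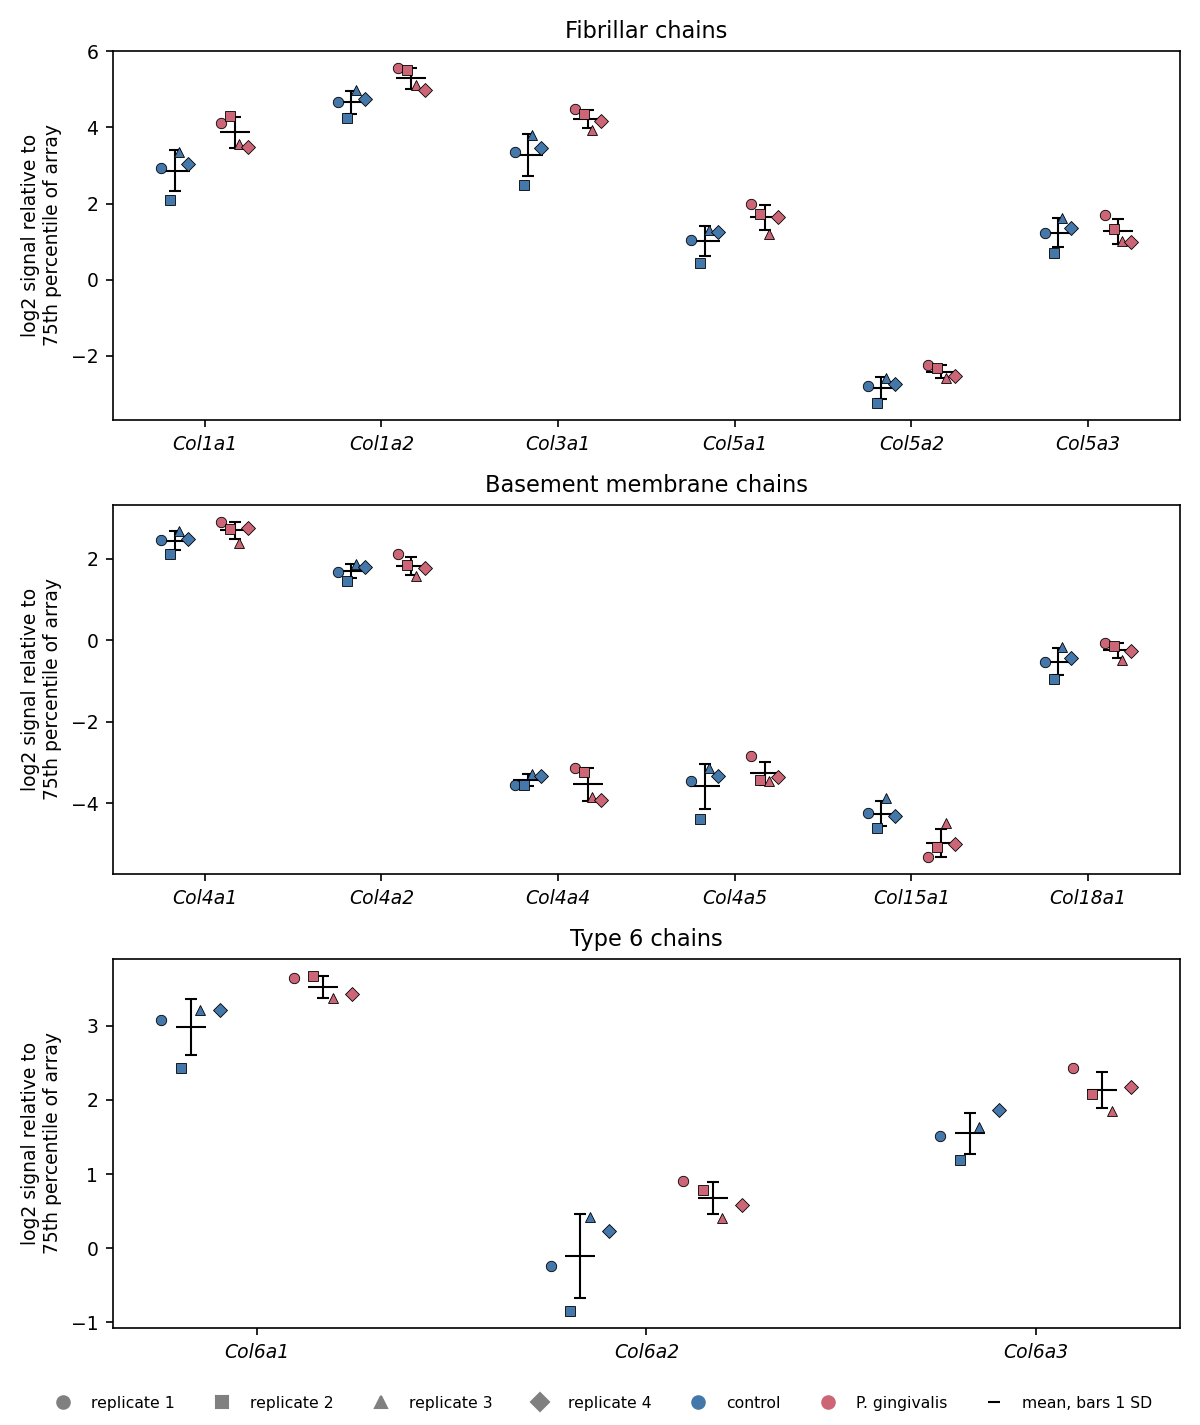
Log2 signal relative to the 75th percentile of the array (vertical axis) for named fibrillar, basement membrane and type 6 chains, one point per array with the marker shape giving the replicate number, and with the group mean and 1 SD (n = 4). Control 2 is the lowest control for Col1a1, Col3a1 and all 3 type 6 chains, P. gingivalis 3 or 4 is the lowest of its group for most chains, and levels of different genes cannot be compared because each probe binds with its own efficiency.

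All 3 type 6 chains that could be tested had higher signal in the P. gingivalis arrays, beside 45.7% of all tested genes, with a median difference of 0.59. Beside 4.86% of all tested genes, each of the 3 was higher at an unadjusted p under 0.05. These are the chains of the classical type 6 trimer, whose inherited defects cause muscle disease. The median was 0.10 with the groups of the value table and 0.66 on the arrays labelled alike. The later-found chains Col6a4, Col6a5 and Col6a6 were well above background on 2, 0 and 0 arrays at most.

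Col6a1 (chr10:76171538-76171597) gave 3.08, 2.43, 3.21 and 3.22 in control arrays and 3.65, 3.67, 3.37 and 3.44 in P. gingivalis arrays. The groups did not overlap, and control 2 lay far below the other 3 controls. The difference was 0.55 ± 0.18 (SE, n = 4 and 4; 1.46-fold, 95% interval 1.1 to 1.94; limma adjusted p 0.367), and it was 0.36 without control 2 and 0.10 under the value table's grouping. Col6a2, its neighbour on chromosome 10, gave -0.24, -0.85, 0.42 and 0.24 against 0.90, 0.79, 0.41 and 0.58, so the groups met at control 3 and P. gingivalis 3. The difference was 0.78 ± 0.26 (SE; 1.72-fold; limma adjusted p 0.372), with 0.61 and 0.37 for its other probes, and it was 0.26 under the value table's grouping. Col6a3, the long chain that carries most of the outer domains, gave 1.51, 1.19, 1.64 and 1.86 against 2.44, 2.08, 1.85 and 2.17, again meeting at one array of each group. The difference was 0.59 ± 0.17 (SE; 1.5-fold; limma adjusted p 0.329), but its other probes gave 0.14 and -0.02, so the probes of this gene disagreed. It was 0.08 under the value table's grouping.

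Among basement membrane chains, 4 of 6 tested genes were higher and 2 lower, beside 45.7% of all tested genes higher, and the median difference was 0.19. No gene of the class had groups that did not overlap, beside 7.07% of all tested genes. At that share, none among 6 genes tells little about the class. The median was 0.05 without control 2, 0.10 without P. gingivalis 1 and also 0.05 under the value table's grouping. Col4a1 and Col4a2 encode the trimer found in nearly every basement membrane. Col4a1 (chr8:11199009-11199068) gave 2.46, 2.12, 2.68 and 2.47 in control arrays and 2.90, 2.72, 2.38 and 2.76 in P. gingivalis arrays, a difference of 0.26 ± 0.14 (SE; 1.19-fold, 95% interval 0.95 to 1.5; limma adjusted p 0.532). Col4a2 gave 1.66, 1.46, 1.86 and 1.79 against 2.12, 1.83, 1.58 and 1.76, a difference of 0.13 ± 0.13 (SE; 1.09-fold, 95% interval 0.887 to 1.35; limma adjusted p 0.732). For both, P. gingivalis 1 was the highest array and P. gingivalis 3 lay within the controls. Without control 2 the Col4a1 difference was 0.15 and the Col4a2 difference 0.05, and with the groups of the value table they were 0.02 and -0.02. The Col4a2 difference was also 0.03 without P. gingivalis 1, 0.21 without P. gingivalis 3 and 0.07 after normexp.

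The type 4 chains of specialised membranes such as the kidney filter were dim. Col4a4 gave -3.55, -3.55, -3.27 and -3.32 against -3.12, -3.24, -3.84 and -3.91, a difference of -0.10 ± 0.19 (SE) in which P. gingivalis 1 and 2 were the highest and 3 and 4 the lowest arrays. Its other probe gave 0.08, and leaving out single arrays moved the difference from -0.24 (without P. gingivalis 1) to 0.02 (without P. gingivalis 4). Col4a5 gave -3.46, -4.38, -3.14 and -3.33 against -2.83, -3.43, -3.44 and -3.35, a difference of 0.31 ± 0.27 (SE) that was 0.05 without control 2, 0.17 without P. gingivalis 1 and 0.53 on the arrays labelled alike. Col4a3 was well above background on at most 3 arrays and Col4a6 on none.

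Col15a1 and Col18a1 encode the multiplexins, which carry endostatin-like ends and anchor the basement membrane to the matrix outside. Col15a1, measured by the glycine repeat probe printed above, gave -4.24, -4.59, -3.85 and -4.31 in control arrays and -5.31, -5.08, -4.48 and -5.00 in P. gingivalis arrays. It was the one collagen gene with lower signal at an unadjusted p under 0.05, with a difference of -0.72 ± 0.20 (SE; limma adjusted p 0.329) and an overlap at P. gingivalis 3. All 4 control arrays but only 1 P. gingivalis array showed it well above background, so its P. gingivalis values are near the limit of detection. The control arrays, where it was brighter, were enough alone for the filter of 4 arrays, so its p is no support for a difference. Its difference was 0.06 after normexp, -0.33 on the arrays labelled alike and 0.39 under the value table's grouping. Col18a1 gave -0.52, -0.96, -0.17 and -0.43 against -0.06, -0.14, -0.49 and -0.28, a difference of 0.28 ± 0.17 (SE; limma adjusted p 0.554) that was 0.13 without control 2 and 0.08 under the value table's grouping.

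The other 15 tested chains had a median difference of 0.11, with 9 higher and 6 lower, beside 45.7% of all tested genes higher. The median was 0.02 without control 4 and 0.07 without control 2, and without P. gingivalis 1 or 3 it was 0.07 or 0.05. Beside 4.86% of all tested genes, 3 of the 15 were higher at an unadjusted p under 0.05. Col8a2, of the short-chain network collagens, gave -3.64, -4.36, -3.45 and -3.61 in control arrays and -2.91, -2.65, -2.95 and -3.37 in P. gingivalis arrays. The groups did not overlap, and the difference was 0.80 ± 0.22 (SE; 1.74-fold; limma adjusted p 0.329). It was 0.37 after normexp and 0.04 under the value table's grouping. Its partner Col8a1 differed by 0.20. Col12a1, a collagen of fibril surfaces that is abundant where tendon meets muscle, gave -2.93, -2.92, -2.76 and -2.68 against -2.19, -1.91, -2.74 and -2.36, a difference of 0.52 ± 0.17 (SE; limma adjusted p 0.359) with 0.12 for its other probe. Col16a1, also of fibril surfaces, gave -0.45, -0.75, -0.11 and -0.13 against 0.20, 0.01, -0.14 and -0.10, a difference of 0.35 ± 0.15 (SE, limma adjusted p 0.443). Its other tested probe gave 0.65 but was well above background on 1 control array and all 4 P. gingivalis arrays. The P. gingivalis arrays, where that probe was brighter, were enough alone for the filter, so its value is no support. For the brighter probes of Col12a1 and Col16a1, P. gingivalis 3 lay within the controls. Under the value table's grouping Col12a1 differed by -0.15 and Col16a1 by 0.13, and without control 2 Col16a1 differed by 0.22.

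The fibril-associated chains, Col9a1, Col9a2, Col12a1, Col14a1, Col16a1, Col19a1, Col20a1 and Col22a1, were higher in 5 and lower in 3 of 8, with a median of 0.16. Besides Col12a1 and Col16a1, Col9a1 differed by 0.17, Col9a2 by 0.19, Col14a1 by 0.15, Col19a1 by -0.10 and Col20a1 by -0.14. Col22a1, a marker of the muscle-tendon junction, differed by -0.06 (95% interval of the fold 0.856 to 1.08), the narrowest interval among these chains. Of the transmembrane chains, Col13a1, which sits at the neuromuscular junction, differed by 0.11, Col17a1 of the epidermal hemidesmosome by -0.12 and Col23a1 by -0.01. Col7a1, of the anchoring fibrils under the epidermis, differed by -0.20 and Col26a1 by 0.02. Col10a1, Col25a1 and Col9a3 were well above background on no array, and Col28a1 on 1 at most.

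Control 4 carried epidermal transcripts. The 4 tested epidermal markers of 6 listed, Krt5, Krt14, Krt10 and Lor, summed to 16.7 times the 75th percentile signal there. The lowest control stood at 1.2 and the P. gingivalis arrays at 1.36 to 1.51. Krt1 and Dsp, also listed, were not tested and are not in these sums. In that array the skin collagen Col7a1 stood at 1.75 and Col17a1 at -2.25, the highest control value of each, against 1.51 to 1.61 and -2.42 to -2.27 in the other controls. Without control 4, Col1a1 differed by 1.07, the fibrillar median was 0.56, the type 6 median 0.69 and the count of higher genes 11.

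To see which arrays carried the class differences, each gene was centred on its mean over the 8 arrays and averaged within its class. The fibrillar level was -0.08, -0.87, 0.05 and -0.18 in control arrays 1 to 4 and 0.55, 0.43, -0.01 and 0.12 in P. gingivalis arrays 1 to 4. The type 6 level was -0.34, -0.87, -0.04 and -0.02 against 0.53, 0.39, 0.09 and 0.27. The basement membrane level was -0.01, -0.39, 0.28 and 0.07 against 0.21, 0.04, -0.12 and -0.08, a difference of group means of 0.03. This level includes the dim Col15a1. On the 5 chains well above background on all 8 arrays, which leave out Col15a1, it was -0.09, -0.47, 0.18 and 0.03 against 0.39, 0.14, -0.17 and -0.01. The difference was then 0.17. Control 2 was lowest in all 3 classes and P. gingivalis 1 highest in fibrillar and type 6 chains, and only the type 6 level kept the groups apart. Under the value table's grouping the type 6 level overlapped as well. The level of the others was -0.23 to 0.04 in the controls and -0.05 to 0.19 in the P. gingivalis arrays.

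The difference between 2 classes within an array does not depend on how the array was scaled. The fibrillar less the basement membrane level was -0.07, -0.48, -0.23 and -0.25 in control arrays and 0.34, 0.39, 0.11 and 0.20 in P. gingivalis arrays, so the groups did not overlap. With chains well above background on all 8 arrays the values were -0.04, -0.26, -0.10 and -0.17 against 0.05, 0.25, 0.16 and 0.10. The type 6 less the basement membrane level was -0.33, -0.48, -0.32 and -0.09 against 0.32, 0.35, 0.21 and 0.34, also without overlap. With chains well above background on all 8 arrays, these were -0.25, -0.40, -0.22 and -0.05 against 0.14, 0.25, 0.26 and 0.28. The value table's grouping sets controls 1 and 2 together with P. gingivalis 1 and 2, against the other arrays. Under that grouping both of these class differences overlapped between the groups, with either set of chains. Fibrillar less type 6 spanned -0.15 to 0.26 among control arrays, and the P. gingivalis arrays, at -0.14 to 0.04, lay within that span. With chains well above background on all 8 arrays, the spans were -0.12 to 0.21 and -0.18 to 0.01, which overlapped without one holding the other. These are descriptions of the 8 arrays, since few genes stand for each class and the chains were not tested as a set.

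**Figure D3:**
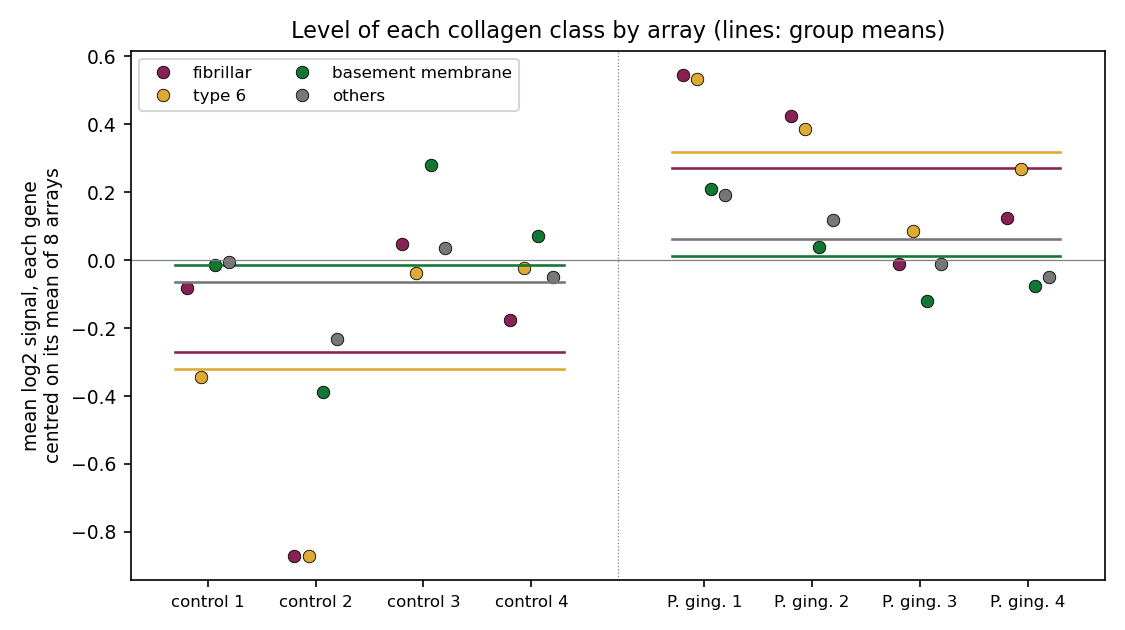
Mean log2 signal of the tested genes of each collagen class, each gene centred on its mean over the 8 arrays (vertical axis), in each array (horizontal axis), with points set side by side for the classes and lines at the group means. The fibrillar and type 6 points of control 2, both at -0.87, are the lowest, and the basement membrane points of the groups lie among each other.

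Chains of the same trimer followed each other across the arrays. Over the 8 arrays, Col1a1 and Col1a2 correlated with Pearson's r = 0.991 (exact permutation p 7.44e-05, adjusted over 10 pairs 0.000413) and Spearman's rho = 0.976 (exact permutation p 0.000397, adjusted 0.00380). Without the 2 arrays farthest from the median, control 2 and P. gingivalis 2, r was 0.994, and for deviations from the group means it was 0.978. Col4a1 and Col4a2 gave r = 0.909 (exact permutation p 0.00265, adjusted 0.00332) and rho = 0.833 (exact permutation p 0.0154, adjusted 0.0192), with r = 0.762 without P. gingivalis 1 and control 2. Col5a1 and Col5a2 gave r = 0.969 (exact permutation p 9.92e-05, adjusted 0.000413) and rho = 0.929 (exact permutation p 0.00223, adjusted 0.00558), with r = 0.869 without those 2 arrays. All permutation tests were two-sided. They shuffled arrays across the groups, so their p also counts a group difference that both chains share. For deviations from the group means, r was 0.92 for Col4a1 and Col4a2 and 0.94 for Col5a1 and Col5a2.

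The 3 type 6 pairs gave r = 0.971, 0.913 and 0.923 and rho = 0.905, 0.905 and 0.881, with adjusted exact permutation p of 0.000496, 0.00113 and 0.000909 for r and 0.00761, 0.00761 and 0.0104 for rho. Without the 2 arrays farthest from the median, r was 0.927, 0.956 and 0.816. Chains of different collagens were also correlated. Col1a1 with Col3a1 and with Col6a1 both gave r = 0.969 and rho = 0.952 (adjusted exact permutation p 0.000496 and 0.000413 for r, 0.00380 for both rho), with r = 0.961 and 0.952 without 2 arrays. Col1a1 with Col4a1 gave r = 0.839 (adjusted exact permutation p 0.00977) but rho = 0.667 (adjusted exact permutation p 0.0831). Col4a1 with Col6a1 gave r = 0.858 and rho = 0.762 (adjusted exact permutation p 0.00747 and 0.0408), and r was 0.531 without P. gingivalis 1 and control 2, so this relation rests largely on those arrays. For deviations from the group means, r was 0.922 for Col1a1 with Col3a1 and 0.929 with Col6a1. It was 0.783 for Col1a1 with Col4a1 and 0.804 for Col4a1 with Col6a1. All pairs share the same 8 RNA samples and array scaling. The difference of Col1a1 less Col4a1 was 0.43 ± 0.31 in the controls and 1.18 ± 0.35 in the P. gingivalis arrays (SD, n = 4 each), which needs no scaling.

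The genes that make, process and bind collagens were counted in 5 lists, and none of their genes passed the adjusted test. Over all tested genes, 45.7% were higher, 4.86% were higher and 5.83% lower at an unadjusted p under 0.05, and 3.24% had all P. gingivalis arrays above all controls. Of 20 genes for modification and folding in the endoplasmic reticulum, 11 were higher and 9 lower, with a median of 0.02, and 4 (beside 4.86% of all tested genes) were higher at an unadjusted p under 0.05. Crtap and P3h3, of the proline 3-hydroxylation machinery, differed by 0.28 ± 0.08 (SE; limma adjusted p 0.349) and 0.34 ± 0.11 (SE; limma adjusted p 0.354). Ppib, the prolyl isomerase that works with Crtap, differed by 0.19 ± 0.06 (SE; limma adjusted p 0.349). In all 3 the groups did not overlap, as in no other gene of this list, beside 3.24% of all tested genes. Under the value table's grouping Crtap, P3h3 and Ppib differed by -0.02, 0.08 and 0.05, and Ppib differed by 0.11 after normexp.

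Among 12 tested genes for procollagen cleavage and crosslinking (of 15 listed), 9 were higher and 3 lower, with a median of 0.26, and 3 were higher at an unadjusted p under 0.05, beside 4.86% of all tested genes. These were Pcolce, the enhancer of C-propeptide cleavage (0.31 ± 0.12, SE), Adamts2, the N-propeptidase (0.37 ± 0.14, SE), and Loxl3, a lysyl oxidase (0.38 ± 0.15, SE), with limma adjusted p of 0.405, 0.419 and 0.417. Under the value table's grouping they differed by 0.03, 0.10 and -7.7e-05, and Loxl3 differed by 0.20 after normexp and 0.24 without P. gingivalis 1. Adamts3 and Tll2 were well above background on no array.

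Of 14 proteins that decorate or organise fibrils, all 14 were higher, beside 45.7% of all tested genes, with a median of 0.24, and 3 were higher at an unadjusted p under 0.05, beside 4.86%. Lum, which encodes the fibril-spacing proteoglycan lumican, differed by 0.65 ± 0.15 (SE; 1.57-fold, 95% interval 1.24 to 1.99; limma adjusted p 0.323) without overlap. Postn and Thbs2, which encode the matricellular proteins periostin and thrombospondin 2, differed by 0.48 ± 0.19 (SE) and by 0.37 ± 0.11 (SE), with limma adjusted p of 0.417 and 0.355. Under the value table's grouping Lum differed by 0.28, Thbs2 by 0.07 and Postn by -0.14.

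Of 11 basement membrane partners, 9 were higher and 2 lower, with a median of 0.21. Nid1 and Nid2, the nidogens that tie laminin to type 4 collagen, differed by 0.33 ± 0.15 and 0.35 ± 0.15 (SE; limma adjusted p 0.454 and 0.439), and the laminin chain gene Lamb1 by 0.32 ± 0.14 (SE; limma adjusted p 0.449). Under the value table's grouping Nid1 differed by 0.13, Nid2 by 0.22 and Lamb1 by 0.16, without control 2 Nid1 by 0.21, and on the arrays labelled alike Nid2 by 0.57. Of the 11, 1 was higher at an unadjusted p under 0.05, beside 4.86% of all tested genes. Of 11 tested collagen receptors and uptake genes, 6 were higher and 5 lower, with a median of 0.03. Mrc2, the endocytic receptor for collagen fragments, differed by 0.40 ± 0.10 (SE; limma adjusted p 0.323) without overlap. Itga1, of a collagen-binding integrin, and Cd36, a scavenger receptor that binds collagen, differed by -0.15 ± 0.08 and -0.13 ± 0.08 (SE; limma adjusted p 0.515 and 0.556), and Itga2 was well above background on no array. Under the value table's grouping Mrc2, Itga1 and Cd36 differed by 0.10, 0.10 and 0.11. On the arrays labelled alike Itga1 differed by -0.04 and Cd36 by -0.02, and Itga1 differed by -0.04 after normexp and -0.09 without P. gingivalis 1. Mrc2 was the only gene of the 11 at an unadjusted p under 0.05, beside 10.7% of all tested genes in either direction.

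Fibroblast and tendon markers were counted beside the chains, and none passed the adjusted threshold. Signal in the P. gingivalis arrays was higher for all 10 fibroblast markers, beside 45.7% of all tested genes, with a median of 0.26. Of them, 3 were higher at an unadjusted p under 0.05, beside 4.86% of all tested genes. Their summed signal, in multiples of the 75th percentile, was 241 to 315 in control arrays and 293 to 347 in P. gingivalis arrays. Signal was also higher for all 7 tested tendon markers (of 8 listed), 2 of them at an unadjusted p under 0.05, beside the same shares. Their median was 0.41, with a summed signal of 20.01 to 29.2 against 30.1 to 37.2. Control 2, lowest for fibrillar and type 6 chains, was also lowest for the centred fibroblast level, at -0.52, and the tendon level, at -0.81. The 2 tendon markers at that level were Cilp2, at 0.53 ± 0.12 without overlap, and Thbs4, at 0.41 ± 0.14 (SE; limma adjusted p 0.323 and 0.369). Tnmd and Scx, which define tendon cells, differed by 0.62 ± 0.46 and 0.19 ± 0.10 (SE; limma adjusted p 0.632 and 0.495). The part of fibroblast or tendon content in the collagen differences was not tested, and Lum, Dcn and Mfap5 stand in both the fibroblast and the fibril list, as Fmod and Comp do in the tendon and the fibril list.

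The markers of other cell types were counted in the same way. Beside them, 45.7% of all tested genes were higher, and 4.86% were higher and 5.83% lower at an unadjusted p under 0.05. Macrophage markers were higher in 6 of 7, with a median of 0.18. Of these, Csf1r, Itgam and Cd163 were higher at an unadjusted p under 0.05. In 2 of them, Csf1r and Itgam, the groups did not overlap, beside 3.24% of all tested genes higher without overlap. The summed macrophage signals were 37.8 to 42.4 in control and 41.3 to 51.9 in P. gingivalis arrays. Endothelial markers, from a cell type that makes Col4a1 and Col4a2, were lower in 7 of 8, with a median of -0.05. The 3 lower at an unadjusted p under 0.05 were Kdr (-0.59), Cldn5 (-0.44) and Egfl7 (-0.31). Cdh5, Pecam1, Emcn and Tek differed by -0.05, -0.04, -0.03 and -0.01, and Flt1 by 0.001. The summed endothelial signals were 46.7 to 54.5 against 38.8 to 48.7. Muscle fibre markers were higher in 8 of 8, with a median of 0.13 and summed signals of 4937 to 5414 against 5461 to 5735. Pericyte and smooth muscle markers were higher in 6 of 8, Schwann cell markers in 2 of 7, adipocyte markers in 5 of 7 and satellite cell markers in 1 of 3 tested. At an unadjusted p under 0.05, 1 pericyte and smooth muscle marker was higher, and 1 Schwann cell marker and 1 adipocyte marker were lower. No muscle fibre or satellite cell marker passed that level. The part of these cell types in the collagen differences was not tested.

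**Figure D4:**
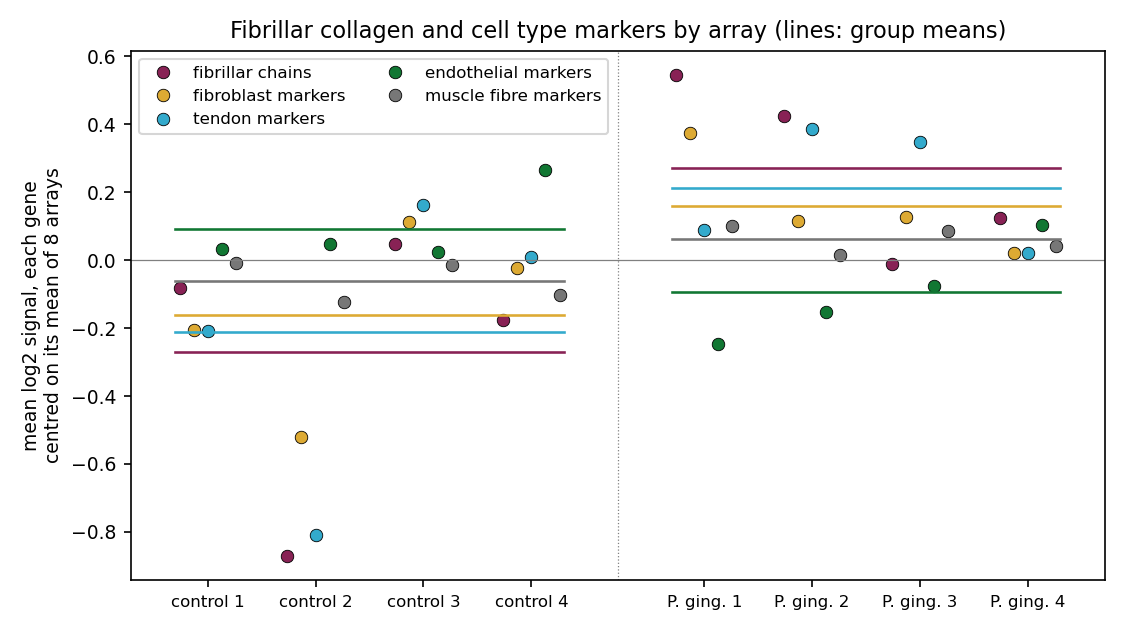
Mean log2 signal of the tested fibrillar chains and of the fibroblast, tendon, endothelial and muscle fibre markers, each gene centred on its mean over the 8 arrays (vertical axis), in each array (horizontal axis), with lines at the group means. Control 2 has the lowest fibrillar (-0.87), tendon (-0.81) and fibroblast (-0.52) points, and its endothelial point, at 0.05, is near those of controls 1 and 3.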

How the data were processed

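RNA of 8 muscle samples was labelled with Cy3 from 200 ng per sample and hybridised to 1-colour Agilent arrays. The deposited array files hold scanner output; the processed signal intensity used here was background-subtracted by the authors' Feature Extraction software (11.0.1.1 per the file headers, 11.1 per the submitters' processing notes). The deposited value table holds log2-scale values for 24764 probes (column medians 7.36 to 7.37) whose normalization is not given in the sources used here. Probe positions are those of the files (mm9), and exons and introns were not assigned.

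Outlier spots (0.108 to 0.218% per array) were left out, and log2 intensity less each array's 75th percentile was averaged per probe. Of 56605 probes, 31649 well above background on at least 4 of 8 arrays (over 50% of a probe's spots) were tested with limma 3.58.1 in R 4.3.3, two-sided, checked on simulated data, with Benjamini-Hochberg adjustment and a threshold of 0.05. A gene was represented by its brightest tested probe. Of the probes, 43840 had a current RefSeq gene name (GRCm38.p6 tables) and 12765 did not. With 4 arrays a group, their number sets the precision. If the samples are not separate mice, which the labels leave unsaid, p-values measure only the spread between these samples.

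The labels do not say that replicate numbers pair the samples, and the main test used no pairs. Deviations of same-numbered arrays, which shared a column of the slide, correlated by 0.0716, 0.0412, -0.0275 and 0.0155. Such values cannot show that the samples were not paired. The members, gene lists and tests were chosen with earlier results of these data known. Values in every array are given for the main muscle chains and the 3 genes of lowest unadjusted p in each class, and from each pathway list the 3 of lowest unadjusted p are named; other genes were named after their values were seen. Alternatives were background correction (normexp, offset 50), quantile normalization, another percentile, no or a stricter filter, a variance trend, all probes of a gene, the value table, its groups, and leaving out each array. Figures were drawn with matplotlib 3.10.9.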

Additional observations from a re-analysis of the deposited data

Results flagged for a closer look

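Among 80 groups of 4 arrays checked for 1 array far from the other 3 (21 collagen chains, 15 pathway genes and 4 class levels, each in both groups), 4 had one, and chance gives about 1 in 20. In control 2, Col6a1 stood at 2.43 with the nearest control at 3.08, Cd36 at 3.91 with the nearest at 4.14, and Postn at -2.76 with the nearest at -2.28. Control 2 was also the lowest control for the fibrillar, type 6 and basement membrane levels. In P. gingivalis 1, Col4a5 stood at -2.83 with the nearest array of the group at -3.35.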

How the results depend on the processing

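The count of collagen probes past the adjusted threshold was 0 under every alternative run. The count of genes higher at an unadjusted p under 0.05, 12 in the report, was 20 after normexp, which lifted the median of all probes from -0.02 to 0.05 and the probes at that level from 3544 to 9094 of 31649, 7 on the arrays labelled alike and 1 both with the value table under its own labels and with its groups on the array values. Leaving out each array in turn it ran from 8 to 13. The count of lower genes, 1 in the report, was 0 after normexp and with the value table under its own or matched labels, 2 with the variance trend and 2 on the arrays labelled alike, and 1 to 2 leaving out each array. The fibrillar median of 0.54 was 0.026 with the value table under its own labels and 0.021 with its groups, and the type 6 median was 0.10 under both. Leaving out each array, the medians ran from 0.36 to 0.67 for fibrillar, 0.46 to 0.69 for type 6, 0.05 to 0.28 for basement membrane and 0.02 to 0.14 for other chains. The replicate number as a block left 0 collagen probes past the threshold and 11 genes higher at an unadjusted p under 0.05.

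Differences that changed sign were, after normexp, Col15a1 (0.062) and Col4a4 (0.12), and with matched value table columns Col11a2 (-0.040) and Col4a4 (0.023). With the value table under its own labels they were Col2a1 (-0.19), Col5a2 (-0.0175), Col11a1 (-0.18), Col11a2 (-0.050), Col4a2 (-0.039), Col15a1 (0.19), Col6a3 (-0.039), Col12a1 (-0.10), Crtap (-0.037), Cd36 (0.11) and Postn (-0.092). With its groups on the array values they were Col1a1 (-0.011), Col1a2 (-0.037), Col2a1 (-0.18), Col11a1 (-0.37), Col4a2 (-0.024), Col15a1 (0.39), Col12a1 (-0.15), Crtap (-0.021), Loxl3 (-7.7e-05), Itga1 (0.10), Cd36 (0.11) and Postn (-0.14). Leaving out each array, Col5a3 ran from -0.14 to 0.16, Col11a2 from -0.063 to 0.19 and Col4a4 from -0.24 to 0.023. The cause was not tested, except that the alternatives with the value table's groups regroup the arrays. Of named genes, 32 values changed sign and 642 did not.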
